A study of Mus musculus with 36 samples.

Results

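The 12 libraries described here are the embryonic day (E) 12.5 samples of a mouse bulk RNA-seq series of 36 libraries, selected on their age and divided by their measured level of Dlx1, given as CPM (the count divided by the library total, times 1000000). A library was put on the high side where Dlx1 reached 7 CPM, and on the low side where it was under 7. That placed 6 libraries on each side, with 3 wild type and 3 Chd8+/- libraries on each, and 3 male and 3 female libraries on each. The series compared wild type with Chd8+/- (heterozygous) C57BL/6J mice in dorsal telencephalon at E12.5 and E17.5 and in cerebral cortex at postnatal day (P) 25, with 6 litter- and sex-matched pairs at each age. Chd8 encodes a chromatin remodelling enzyme. The dorsal telencephalon is the wall of the forebrain vesicle that forms the cortex. At E12.5 it borders the ganglionic eminences along its ventral edge, and its medial part was dissected away before freezing. Each library came from 1 embryo, and the labels do not say which embryos formed a pair.

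Dlx1 and its neighbour Dlx2 encode homeodomain transcription factors of the ganglionic eminences, the ventral swellings that produce the GABA-releasing neurons of the forebrain. Dlx5 and Dlx6 are a like pair of genes and act downstream of them. The lateral eminence, marked by Gsx2 in its progenitors and Isl1 in its young neurons, gives rise to striatal neurons. The medial eminence, marked by Nkx2-1 and Lhx6, sends interneurons into the cortex by tangential migration. In these bulk samples, fewer cells of a type and less RNA per cell cannot be told apart.

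Chd8 itself matched the labels in all 12 libraries. It was 238 to 259 CPM in the 6 heterozygous libraries (median 249) and 350.0 to 368 CPM in the 6 wild type libraries (median 358), and its log2 fold change between the sides was 0.00. The libraries held 35330956 to 49561343 counts. Mitochondrial genes took 1.78% to 1.96% of the counts on the high side and 1.80% to 2.09% on the low side. The dorsal markers Emx1 (47.8 to 67.6 CPM), Pax6 (243 to 303 CPM) and Tbr1 (162 to 304 CPM) were present in every library. The CPM values of this paragraph are scaled by the trimmed mean of M-values (TMM), which moved the library sizes by factors of 0.987 to 1.01. Those below are too, unless given as CPM of the library total.

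Dlx1 (ENSMUSG00000041911), the gene that set the sides, spanned a 202-fold range on CPM of the library total. Among the 3 heterozygous libraries of the low side it was 0.408 CPM in male 1, 0.459 CPM in female 1 and 0.687 CPM in female 2. The 3 wild type libraries of the low side had 2.37 CPM in female 2, 2.64 CPM in male 2 and 4.03 CPM in male 3. On the high side, the heterozygous libraries had 9.91 CPM in female 3, 11.4 CPM in male 3 and 16.9 CPM in male 2. The wild type libraries of the high side had 17.47 CPM in female 3, 43.0 CPM in male 1 and 81.0 CPM in female 1. Within each side, then, every wild type library stood above every heterozygous library. The library just under the threshold had 3.97 CPM of its total and the library just above it had 9.92 CPM, so no library lay near 7. The depth gave 19 to 171 Dlx1 counts in a low library and 385 to 3741 in a high library.

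**Figure D1:**
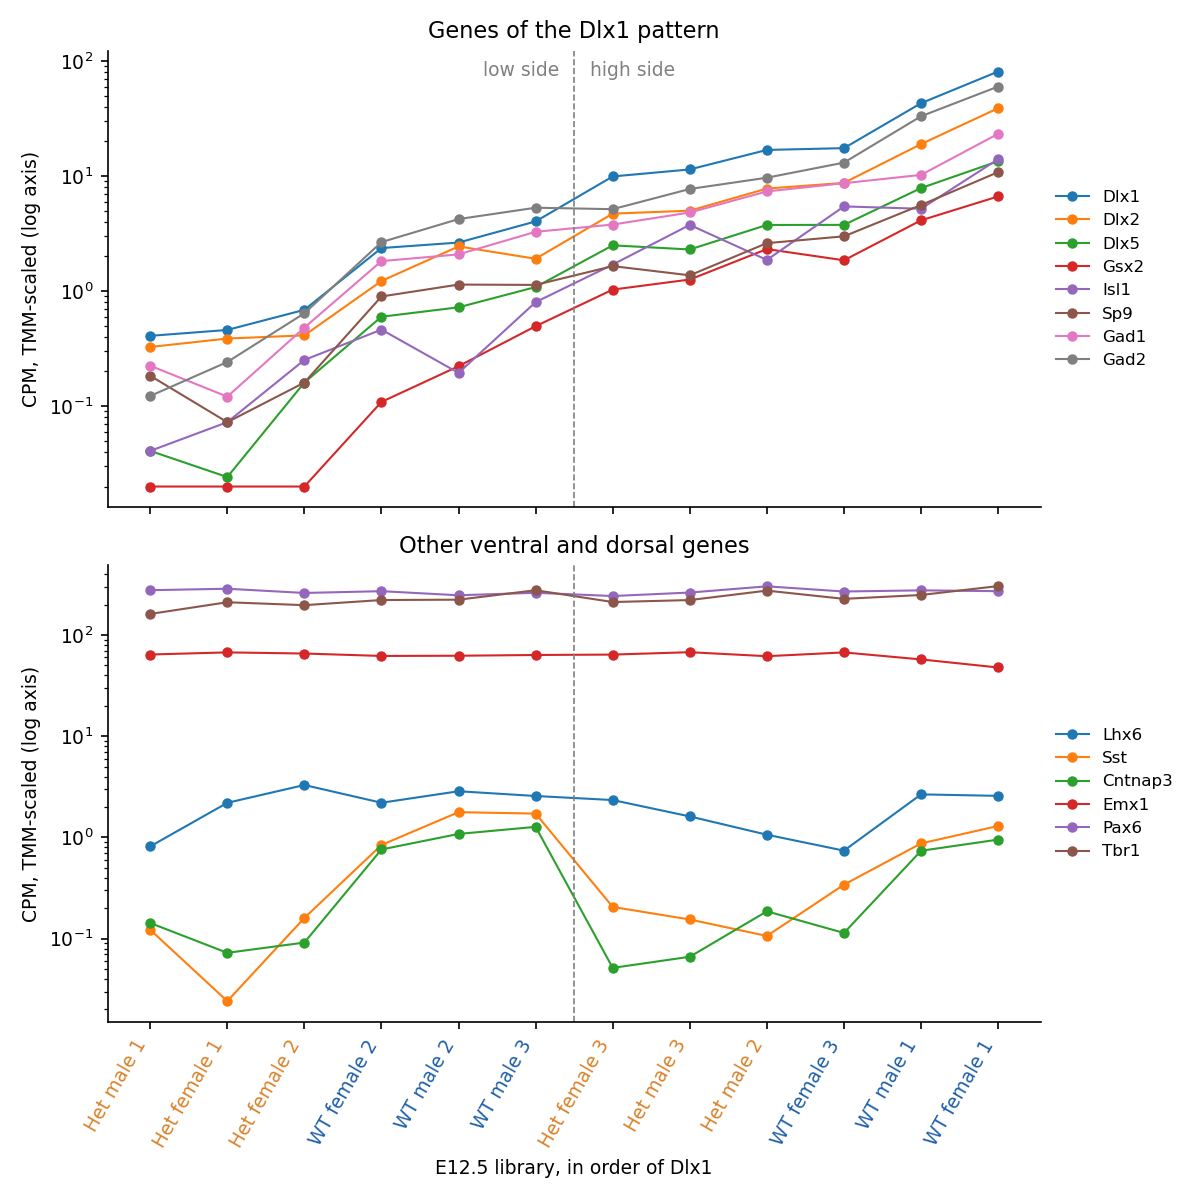
Level of 14 genes (CPM, TMM-scaled, log axis) in the 12 E12.5 libraries, placed from left to right in order of Dlx1, with wild type names in blue, heterozygous names in orange and the dashed line between the sides. Values of 0 (Gsx2 in the 3 libraries at the left) are drawn at the foot of the panel, at 0.02. The 8 genes of the upper panel are ordered much as Dlx1, which runs from 0.408 to 81.0 CPM, whereas Lhx6 stays between 0.741 and 3.30 CPM and Emx1, Pax6 and Tbr1 are nearly level.

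Dlx2 (ENSMUSG00000023391), the partner of Dlx1 on chromosome 2, kept nearly the same order. It was 0.327, 0.387 and 0.412 CPM in the heterozygous low libraries and 1.22, 2.45 and 1.91 CPM in wild type female 2, male 2 and male 3. On the high side it was 4.71, 4.997 and 7.78 CPM in heterozygous female 3, male 3 and male 2, and 8.72, 18.95 and 38.9 CPM in wild type female 3, male 1 and female 1. The sides did not overlap, and a split by Dlx2 instead of Dlx1 put the 12 libraries on the same sides. Dlx5, a homeobox gene of the other pair, was 0.0242 to 1.08 CPM on the low side (median 0.379) and 2.30 to 13.5 CPM on the high side (median 3.76). Dlx6, its partner, was 0 to 0.330 CPM against 0.840 to 5.59 CPM. Dlx6os1, the non-coding transcript that overlaps the Dlx5 and Dlx6 region, was 0.266 to 7.02 CPM on the low side (median 3.11) and 15.2 to 113 CPM on the high side (median 29.5). Dlx1as, transcribed opposite Dlx1, was the member whose sides overlapped, at 0.0204 to 1.98 CPM against 1.47 to 12.1 CPM. The counting was not stated to use strand, so reads of Dlx1 and Dlx1as, and of Dlx6os1 and the genes it overlaps, cannot be told apart.

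Summed over the 6 genes of the Dlx cluster, the low libraries held 1.102 to 16.4 CPM and the high libraries 34.8 to 264 CPM. The log2 fold change of the high over the low side, fitted with genotype as covariate, was 4.20 for Dlx1, 3.72 for Dlx2, 3.89 for Dlx5, 3.83 for Dlx6, 4.10 for Dlx6os1 and 2.74 for Dlx1as. These values describe the division and were not tested, because the sides were cut from Dlx1 in the same libraries. Within wild type libraries alone the difference for Dlx1 was 3.96 and within heterozygous libraries alone it was 4.61.

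Because the genes at the head of the list moved together, the RefSeq promoter windows of GRCm38.p6, which run from 250 bases before to 50 bases after each start, were searched for the homeodomain core TAATTA and for CAATTA, on both strands and with overlapping matches counted. Of the 27 genes higher by a log2 fold change of 1 or more with sides that did not overlap, 22 had a window that was counted. These made 30 windows in all. Windows on a single chromosome were left out of this set but not out of the 32851 mouse promoters used as background. TAATTA stood in 3 windows of 2 genes (Dlx6os1 and Zfp385b), which is 10% of the windows against 5.29% of the 32851 mouse promoters of that length. CAATTA stood in 4 windows of 4 genes (Dlx6os1, Nrxn3, Sp9 and Th), 13.3% against 8%. The parts before the start of 3 windows are shown, in lower case with the matches in capitals: a Dlx6os1 window with both motifs (chr6:6861684-6861933, minus strand), the Sp9 window with CAATTA read from the other strand as TAATTG (chr2:73271676-73271925, plus strand), and the Dlx1 window, in which neither set of letters occurs (chr2:71529195-71529444, plus strand).
Dlx6os1: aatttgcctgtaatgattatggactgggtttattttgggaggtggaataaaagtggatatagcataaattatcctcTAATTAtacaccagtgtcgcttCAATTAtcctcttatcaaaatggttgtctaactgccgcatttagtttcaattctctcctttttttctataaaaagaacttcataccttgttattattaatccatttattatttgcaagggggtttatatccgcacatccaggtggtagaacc
Sp9: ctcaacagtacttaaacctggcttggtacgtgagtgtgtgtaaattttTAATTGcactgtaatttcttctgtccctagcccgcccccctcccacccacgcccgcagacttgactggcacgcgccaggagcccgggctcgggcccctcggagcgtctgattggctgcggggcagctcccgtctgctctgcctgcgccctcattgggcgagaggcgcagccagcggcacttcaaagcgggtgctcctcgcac
Dlx1: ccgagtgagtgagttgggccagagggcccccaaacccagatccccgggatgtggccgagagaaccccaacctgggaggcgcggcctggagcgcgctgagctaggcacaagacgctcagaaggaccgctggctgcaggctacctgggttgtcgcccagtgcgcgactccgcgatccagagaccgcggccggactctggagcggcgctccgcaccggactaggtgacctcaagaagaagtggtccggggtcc
A match is a description of these letters only. The submitters' reads were aligned to another build, so these coordinates belong to the RefSeq table alone.

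Upstream of the Dlx genes, Gsx2 (ENSMUSG00000035946), the homeobox gene of lateral eminence progenitors, also separated the sides. It was listed at 0 counts in all 3 heterozygous low libraries, which allows up to 0.0605 to 0.0723 CPM, and at 4, 8 and 21 counts in the wild type low libraries (0.109, 0.222 and 0.495 CPM). The high libraries had 1.03, 1.26 and 2.32 CPM in heterozygous female 3, male 3 and male 2 and 1.85, 4.12 and 6.65 CPM in wild type female 3, male 1 and female 1. The fitted log2 fold change was 4.54, a value that depends on the 3 low libraries at 0, and in wild type libraries only it was 3.89. Sp9, a zinc finger gene of the eminences, separated the sides, at 0.0725 to 1.14 CPM (median 0.541) against 1.37 to 10.8 CPM (median 2.80), with a log2 fold change of 2.98.

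The other ventral patterning genes were graded rather than separated. Vax1 (2.87), Six3 (2.09), Olig1 (2.04) and Olig2 (1.96) had log2 fold changes above 1, but at least 1 low library overlapped the high side for each. Wild type male 3 was the highest low library for Vax1 (1.08 CPM), Six3 (3.35 CPM) and Olig2 (1.27 CPM). Sp8 (0.19) and Gli1 (0.06), the latter a target of hedgehog signalling, differed little. Of the 13 genes of that list, 9 passed the filter on low counts. The other 4, Gsx1, Nkx2-1, Nkx6-2 and Shh, were too low to enter the fit. Of the 9, 6 had a log2 fold change of 1 or more and the median was 2.04, where the median over all 20171 genes tested was -0.01.

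The genes that make and package GABA followed the same order. Gad1, which encodes one of the enzymes that make GABA from glutamate, was 0.121 to 3.28 CPM on the low side (median 1.15) and 3.79 to 23.3 CPM on the high side (median 8.01), with a log2 fold change of 3.17 and no overlap. Gad2, which encodes the other, was 0.123, 0.242 and 0.641 CPM in the heterozygous low libraries, 2.67, 4.22 and 5.304 CPM in the wild type low libraries, and 5.15 to 59.9 CPM on the high side. Its sides touched, because wild type male 3 at 5.304 CPM stood above heterozygous female 3 at 5.15 CPM, and its log2 fold change was 3.57. Slc32a1, the vesicular GABA transporter, was 0 to 0.896 CPM against 0.818 to 6.17 CPM (log2 fold change 3.32). Abat, which breaks GABA down, had a smaller difference of 0.76.

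Isl1 (ENSMUSG00000042258), the LIM homeobox gene of young striatal neurons, was 0.0408, 0.0725 and 0.252 CPM in the heterozygous low libraries and 0.462, 0.195 and 0.801 CPM in wild type female 2, male 2 and male 3. On the high side it was 1.70, 3.76 and 1.87 CPM in heterozygous female 3, male 3 and male 2 and 5.44, 5.195 and 14.01 CPM in wild type female 3, male 1 and female 1. The sides did not overlap and the log2 fold change was 4.14. The rest of the striatal list was closer to level. Its 15 tested genes of 17 had a median of 0.34, and Isl1 was the only member whose sides did not overlap. Ebf1 (0.50), Foxp2 (0.61), Meis2 (0.12) and Foxp1 (0.09), which cortical or other forebrain cells also transcribe, had small differences, and the dopamine receptor gene Drd1 was at -0.59.

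Over all 20171 genes tested, 27 (0.134%) had sides that did not overlap together with a log2 fold change of 1 or more, and 16 of these had a mean of at least 1 CPM. Without regard to size, 54 genes (0.268%) were higher in every high library than in any low library and 19 (0.0942%) were lower. By size alone, 225 genes (1.12%) reached a log2 fold change of 1 and 61 (0.302%) reached -1. Of the 6 Dlx cluster genes, 5 were among the 54, as were Gsx2 and Sp9 of the ventral patterning list, Gad1 of the GABA list and Isl1 of the striatal list. Since Dlx1 set the sides, nothing is read from these counts beyond the description.

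Among the other genes named by size, Slc18a2, the vesicular monoamine transporter, was 0.837 to 1.47 CPM on the low side and 2.86 to 28.1 CPM on the high side (log2 fold change 2.81). Th, which encodes the rate-limiting enzyme of dopamine synthesis, was 0.0278 to 0.212 CPM against 0.243 to 1.36 CPM (2.17). Slc10a4, a vesicular protein of monoamine and cholinergic neurons, was 0 to 0.245 CPM against 0.246 to 2.14 CPM (3.14). Ddc, the next enzyme of the pathway, had a smaller difference of 0.75, and its sides overlapped. This group was chosen after its values were seen. Slc18a2 differed more among wild type libraries (3.70) than among heterozygous libraries (1.80), a comparison that was not tested. Nrxn3, a synaptic adhesion gene, was 1.79 to 4.84 CPM against 5.74 to 24.5 CPM (1.76), and Hs3st3a1, a heparan sulfate modifying enzyme, had a log2 fold change of 1.53.

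No gene had both a log2 fold change of -1 or less and sides that did not overlap. The 11 genes with the most negative differences among those lower in every high library and with a mean of at least 1 CPM lay between -0.46 (Gm6023) and -0.08 (Mfap1a). Tspan12, a membrane protein of Wnt and Norrin signalling (-0.21), had a mean of 31.9 CPM on the high side and 37.0 CPM on the low side.

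Likeness to Dlx1 was measured as Pearson's r of log2 CPM over the 12 libraries, which share the same dissections and depth. The 10 genes with the highest r were Dlx2 (0.993), Gsx2 (0.992), Dlx5 (0.991), Dlx6os1 (0.984), Dlx6 (0.980), Nrxn3 (0.978), Slc32a1 (0.977), Sp9 (0.974), Gad1 (0.974) and Gad2 (0.973). In all, 42 other genes had an r of 0.9 or more. The 5 lowest were Nedd1 (-0.897), Mfsd2b (-0.896), Haus4 (-0.890), Cd68 (-0.882) and Slc19a2 (-0.869), whose log2 fold changes between the sides lay between -0.26 and -0.12. The first principal component of the 14803 genes with a mean of at least 1 CPM held 28.3% of the variance. Its r with log2 Dlx1 was -0.904. On the low side this component was 17.4 to 29.2 in heterozygous and -4.08 to 4.52 in wild type libraries. On the high side the genotypes overlapped, at -9.86 to 6.98 and -38.3 to 1.04, so the r mixes side with genotype. The second component held 20.6% of the variance, with an r of -0.0724.

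Tested genes of the medial eminence list did not follow the sides. Lhx6, which marks its migrating interneurons, was 0.816 to 3.30 CPM on the low side (median 2.39) and 0.741 to 2.67 CPM on the high side (median 1.98), a log2 fold change of -0.33. Its highest value was in heterozygous female 2, a library with 0.687 CPM of Dlx1, and its lowest was in wild type female 3, a library with 17.47 CPM of Dlx1. Nkx2-1, which specifies the medial eminence, was 0 to 0.566 CPM on the low side and 0.0433 to 0.157 CPM on the high side and was too low for the fit. None of the 8 tested genes of the 10 on this list had sides that did not overlap or reached a log2 fold change of 1. The median was -0.06. Lhx8 was, like Nkx2-1, too low for the fit. Sox6 and Satb1 were high in each genotype of each side, with means of 239 to 266 CPM and 117 to 122 CPM. Sst, Npy and Cntnap3 had means of at most 1.45 CPM. The level median of this list therefore says little about medial eminence content. The caudal eminence list gave a median of 0.01 over 6 tested genes of 8. Adarb2, a gene of caudal eminence interneurons, was the member that reached 1 (1.11), and Calb2, which encodes calretinin and is also a marker of Cajal-Retzius neurons, separated the sides at 3.72 to 7.71 CPM against 7.74 to 15.4 CPM (0.99).

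Of the 10 genes on the interneuron migration list, Nrxn3 and Etv1 separated the sides, and the median was 0.15. Etv1, an ETS transcription factor of the eminences and of cortical neurons, was 24.3 to 44.8 CPM against 51.6 to 79.6 CPM (0.79). Cxcr4, the receptor that guides migrating interneurons, was at -0.14. Robo1, an axon guidance and migration receptor, was at 0.51.

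**Figure D2:**
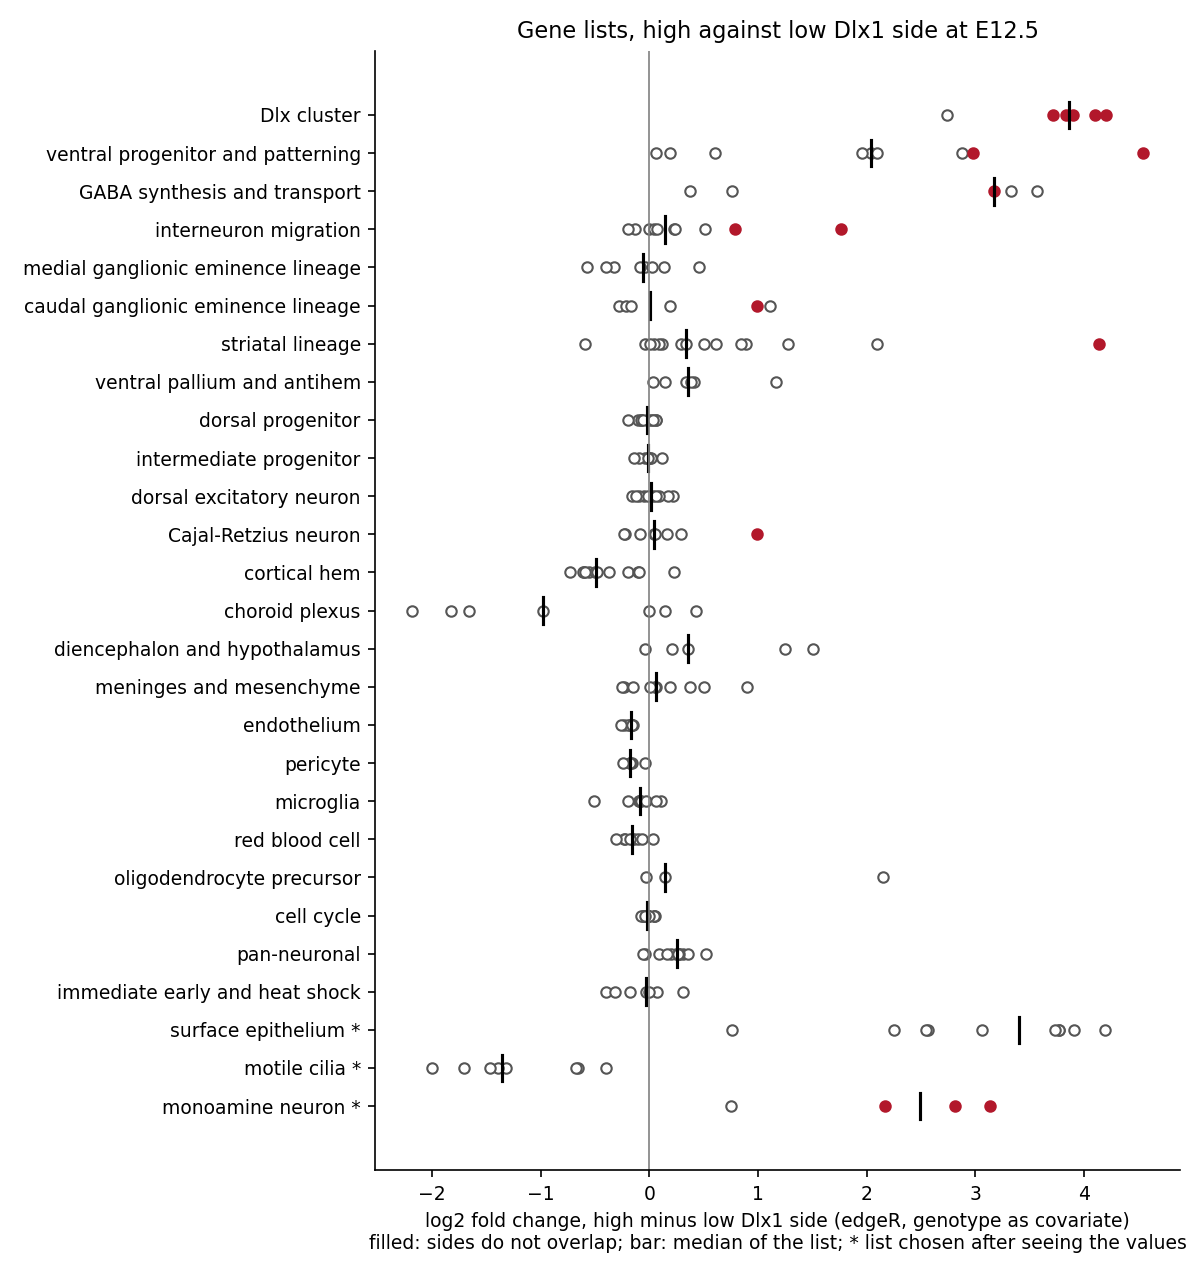
Log2 fold change of the high over the low Dlx1 side for each tested gene of 27 lists (horizontal axis, edgeR with genotype as covariate), with filled points for genes whose 6 high libraries did not overlap the 6 low libraries and black bars for each list's median. The Dlx cluster (median 3.86), GABA (3.17) and ventral patterning (2.04) lists lie to the right, while the medial eminence (-0.06) and dorsal progenitor (-0.02) lists centre on 0. Lists with an asterisk were chosen after their values were seen.

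The dorsal lists had medians near 0 between the sides over all 12 libraries. The 11 dorsal progenitor genes ranged from -0.20 to 0.06 with a median of -0.02, among them the cortical patterning genes Emx1 (-0.08) and Pax6 (0.02). Emx1 was 62.1 to 67.4 CPM on the low side and 47.8 to 67.6 CPM on the high side, and its lowest values, 47.8 and 57.4 CPM, were in wild type female 1 and male 1, the libraries highest in Dlx1. The 8 intermediate progenitor genes had a median of -0.01 and the 10 dorsal excitatory neuron genes one of 0.01, and no gene of either list separated the sides. Within a genotype the excitatory neuron median was -0.22 in wild type and 0.19 in heterozygous libraries, and the intermediate progenitor median was -0.11 and 0.08. Fezf2, a gene of deep-layer neurons, was also lowest in wild type female 1, at 61.6 CPM against 74.5 to 97.0 CPM in the other 11 libraries. The excitatory neuron list as a whole was not low there. Its 10 genes summed to 1271 CPM in wild type female 1, the highest of the high side (from 1019 CPM). The low side ran from 906 to 1442 CPM. The 15 cell cycle genes had a median of -0.02. Of the 12 pan-neuronal genes, 10 had a higher fitted level on the high side (median 0.25), with Ina, a neurofilament protein, at 0.52 and Dcx, a microtubule protein of migrating neurons, at 0.31, and none of them separated the sides. The ventral pallium list, which marks the edge between the dorsal wall and the lateral eminence, had a median of 0.36 over 6 genes, with Fgf15 at 1.16.

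Markers of neighbouring tissues varied between libraries, in places along with Dlx1. The 10 genes of a surface epithelium list, chosen after their values were seen, summed to 28.2, 29.1 and 36.5 CPM in heterozygous male 2, wild type male 1 and wild type female 1, which are all high libraries. They summed to 2.76 to 4.997 CPM in the other 3 high libraries and 1.89 to 7.03 CPM in the 6 low libraries. Krt5, a keratin of basal epithelial cells, was 8.55, 7.95 and 10.1 CPM in those 3 libraries and at most 1.45 CPM elsewhere. The median log2 fold change of this list was 3.40, and without wild type male 1 and female 1 it was 1.56. The sides overlapped for all 10 genes. The part of such tissue in the Dlx1 pattern was not tested.

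The cortical hem, the signalling centre at the medial edge of the dorsal wall, showed the reverse in the same 3 libraries. Its 12 genes, which include Wnt3a, Lmx1a and Rspo1, summed to 52.6 CPM in heterozygous male 2, 79.0 CPM in wild type female 1 and 102 CPM in wild type male 1, against 156 to 382 CPM in the other 9 libraries. The median log2 fold change was -0.49, with 1 of the 12 genes above 0, and no gene separated the sides. Without wild type male 1 and female 1 the median was -0.09. Lmx1a, a transcription factor of the hem, was 2.10, 2.43 and 3.05 CPM in those 3 libraries and 6.09 to 18.2 CPM elsewhere. Choroid plexus genes followed individual libraries of both sides, summing to 138 CPM in heterozygous female 2, 112 CPM in wild type male 2 and 84.5 CPM in wild type female 3 and to 7.66 to 29.2 CPM elsewhere. Ttr, the transthyretin gene of choroid plexus, was 75.7, 67.5 and 44.3 CPM in those 3 libraries and 0 to 5.12 CPM in the rest. Its log2 fold change of -2.19 was -0.07 without heterozygous female 2 and -4.94 without wild type female 3.

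**Figure D3:**
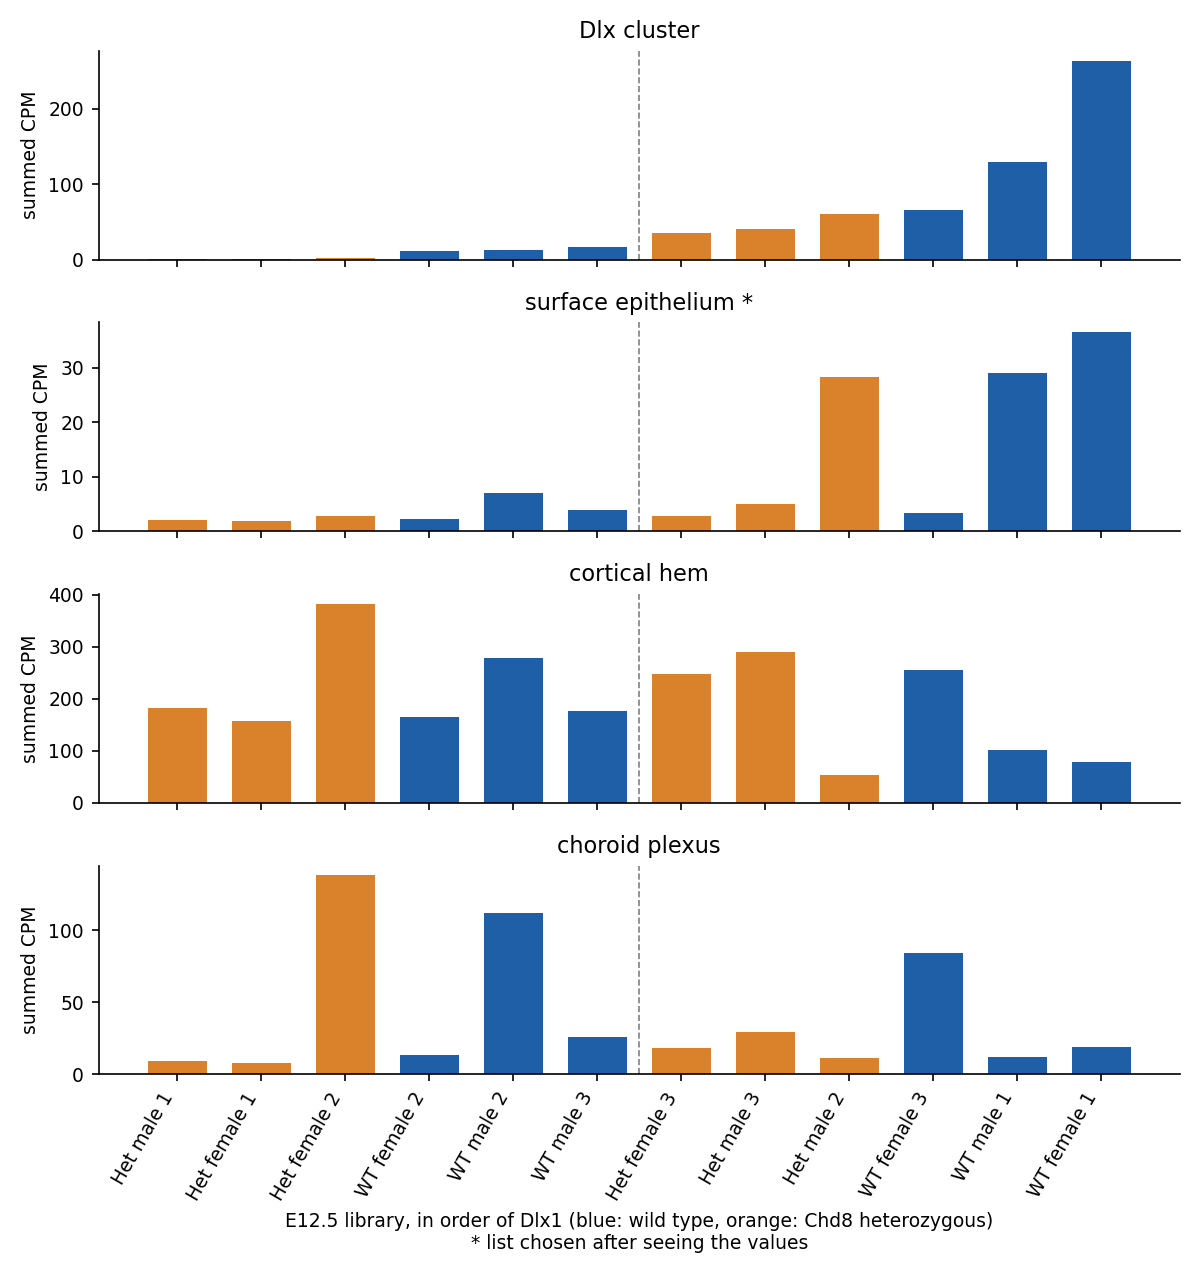
Summed CPM (TMM-scaled) of 4 gene lists in each E12.5 library, in order of Dlx1, with wild type bars in blue, heterozygous bars in orange and the dashed line between the sides. Surface epithelium genes, a list chosen after its values were seen, stand out in heterozygous male 2, wild type male 1 and wild type female 1 (28.2 to 36.5 CPM), the libraries with the least cortical hem (52.6 to 102 CPM), and choroid plexus genes stand out in 3 other libraries (84.5 to 138 CPM).

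The spread of Dlx1 was wide at E12.5 and not at the later ages. On CPM of the library total, Dlx1 was 0.404 to 81.4 CPM at E12.5 with a coefficient of variation of 151% over 12 libraries, 44.4 to 71.6 CPM at E17.5 (14.3%) and 13.4 to 16.8 CPM at P25 (6.03%). Gad2 was 0.121 to 60.2 CPM at E12.5, 43.8 to 71.7 CPM at E17.5 and 149 to 211 CPM at P25. Lhx6, low in all E12.5 libraries at 0.736 to 3.32 CPM, was 62.6 to 81.0 CPM at E17.5 and 14.7 to 17.6 CPM at P25. Wild type female 1 at E12.5 was above every E17.5 library for Dlx1 and below every one of them for Lhx6.

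**Figure D4:**
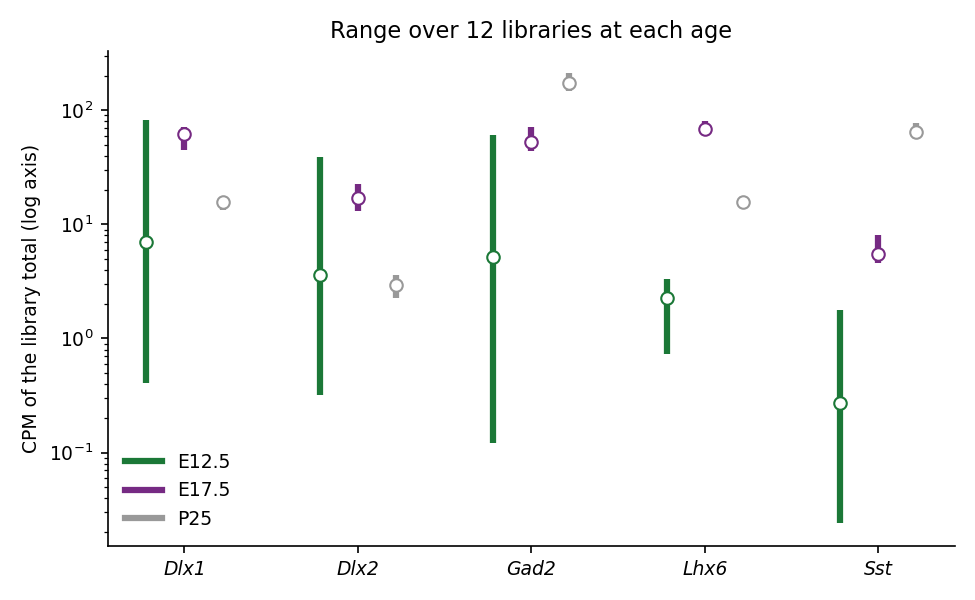
Range (bar) and median (point) over the 12 libraries of each age for 5 genes, in CPM of the library total on a log axis. Dlx1, Dlx2 and Gad2 have long bars at E12.5 (Dlx1 0.404 to 81.4 CPM) and short ones at E17.5 (44.4 to 71.6 CPM) and P25 (13.4 to 16.8 CPM), and Lhx6 lies below its later range in every E12.5 library.

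Genotype came from the labels and was tested. Without a side term, with sex as covariate, edgeR's quasi-likelihood test with Benjamini-Hochberg adjustment called 61 of 20171 genes (0.302%), 18 higher and 43 lower in heterozygous libraries. This count was 36 without robust dispersion and between 1 (without wild type male 2, for example) and 684 (without heterozygous male 2) when a library was left out. No gene of the Dlx cluster or of the ventral patterning, GABA, striatal or interneuron migration lists was among them. Dlx1 had a log2 fold change of -1.97 (SE 1.30, adjusted p = 0.493), Dlx2 one of -1.97 (SE 1.17, adjusted p = 0.440) and Gad2 one of -2.42 (SE 1.19, adjusted p = 0.344). None of the 3 passed the threshold of 0.05. The mean of Dlx1 was 47.1 ± 31.98 CPM (SD, n = 3) among the wild type high libraries and 12.7 ± 3.66 CPM (n = 3) among the heterozygous high libraries, and on the low side it was 3.01 ± 0.893 CPM (n = 3) against 0.518 ± 0.148 CPM (n = 3). These within-side values are given as a description, because the sides were cut from the same gene.

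With sex and the side as covariates, 196 genes (0.972%) were called, 40 higher and 156 lower, and all 61 genes of the first fit were among them. Of the 196, 7 had an r of 0.9 or more with Dlx1. A side term cut from Dlx1 removes spread from such genes by construction, and no p is given for them from this fit. The count was unstable. It was 1 when log2 Dlx1 replaced the side, Chd8 being the gene left, and between 1 and 713 when single libraries were left out. It was 713 without heterozygous male 2, 690 without wild type female 3 and 429 without wild type male 1. Leaving out heterozygous female 2 gave 37, leaving out wild type female 1 gave 12, and heterozygous female 1 and male 3 gave 3 and 2. It was 1 when any of 5 others was omitted, namely male 1 and female 3 of the heterozygous and male 2, male 3 and female 2 of the wild type libraries.

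None of the 10 genes with the smallest p for genotype had an r of 0.9 or more with Dlx1, the highest being Dpf3 (0.877). Chd8 fell by 0.53 on the log2 scale (adjusted p = 8.22e-06) and was called in 21 of 21 alternatives. Sst, the somatostatin gene of medial eminence interneurons, fell by 3.07 on that scale with the side held (adjusted p = 0.0211) and by 3.09 without it (adjusted p = 0.0224). It was 0.342 to 1.78 CPM in wild type libraries (median 1.09, 12 to 73 counts) and 0.0242 to 0.206 CPM in heterozygous libraries (median 0.139, 1 to 8 counts). The genotypes did not overlap, while the sides did, at 0.107 to 1.30 CPM on the high side and 0.0242 to 1.78 CPM on the low side. Cntnap3, a contactin-associated protein gene of the same list, fell by 2.98 (adjusted p = 0.0211), with 0.114 to 1.27 CPM in wild type and 0.0515 to 0.187 CPM in heterozygous libraries, where wild type female 3 (0.114 CPM) lay inside the heterozygous range. Lhx6 of the same list had a genotype log2 fold change of -0.34 (adjusted p = 0.710 without the side term), and Sst and Cntnap3 were the 2 called genes of the 8 tested. Sst and Cntnap3 were each called in 10 of 20 alternatives, with adjusted p from 0.00175 to 0.0815 for Sst and from 0.000300 to 0.0815 for Cntnap3, and in 5 of the 12 fits that left a library out.

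Gria1, a glutamate receptor subunit, fell by 1.03 (adjusted p = 0.0211, 13 of 21 alternatives), from 9.32 to 14.4 CPM in wild type libraries to 4.69 to 8.02 CPM in heterozygous libraries. The cell adhesion gene Cadm3 fell by 0.44, the chromatin gene Dpf3 by 0.84, Prune2 by 0.64 and the transcription elongation regulator Hexim1 by 0.29, and Zcwpw1 (0.55) and BC025920 (0.48) rose, all at the same adjusted p of 0.0211 and called in 10 to 13 of 21 alternatives each. In the 12 fits that left a library out, Gria1 was called in 5 and each of the other genes in 4 to 6. Of these genes, Dpf3 (r of 0.877 with Dlx1) was not called without the side term (adjusted p = 0.0768). Prune2 (r of 0.749) was called without it, at an adjusted p of 0.0456. The side term, cut from Dlx1, also removes spread from genes partly like Dlx1, so their adjusted p of 0.0211 carries that limit. All 12 pan-neuronal genes had lower fitted levels in heterozygous libraries (median -0.43 without the side term), but none was called.

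**Figure D5:**
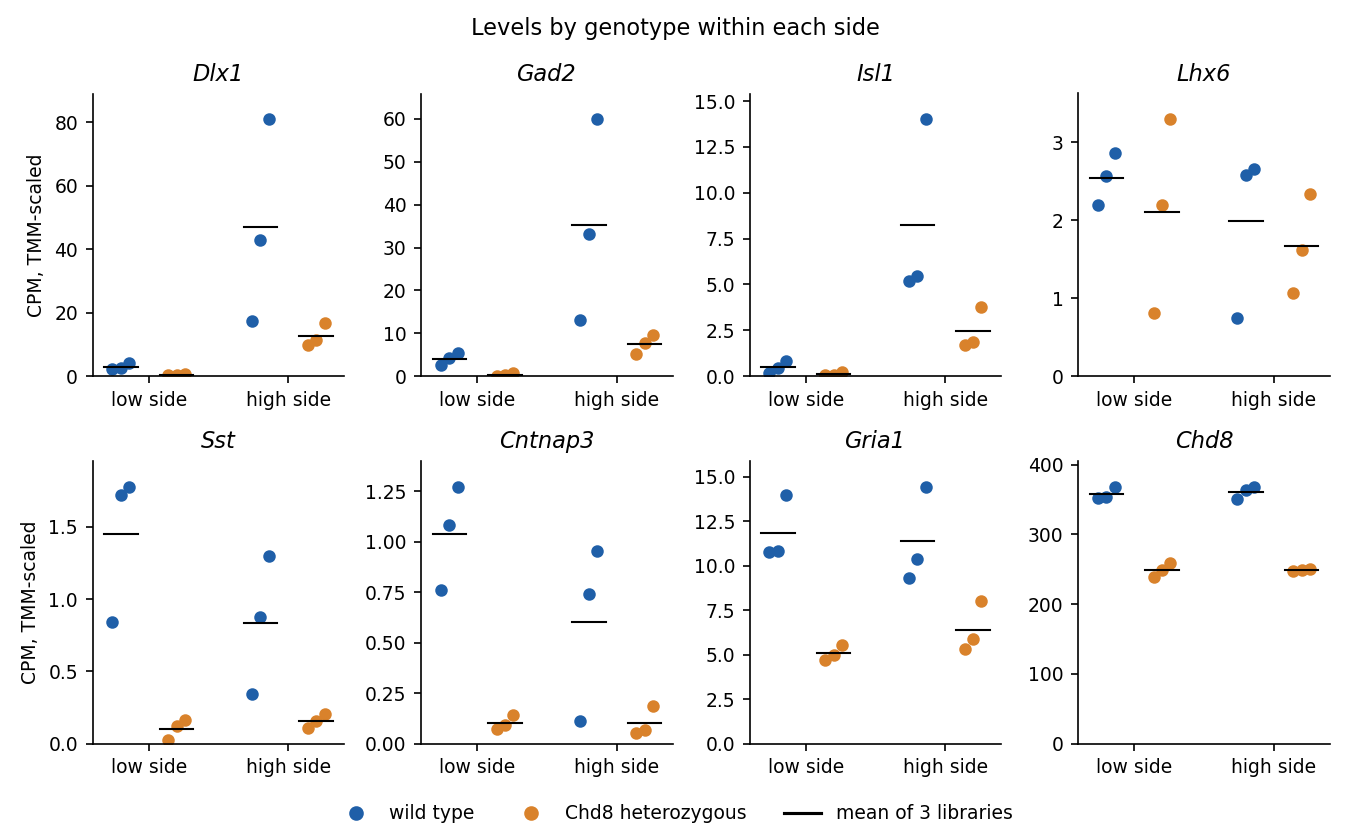
Level of 8 genes (CPM, TMM-scaled, linear axes from 0) in the 3 libraries of each genotype on each Dlx1 side, with the mean of 3 as a black bar. Dlx1, which set the sides, Gad2 and Isl1 have higher means on the high side and, within each side, in wild type libraries. Lhx6 differs little by either. Sst, Cntnap3, Gria1 and Chd8 differ mainly by genotype. Chd8 is at 238 to 259 CPM in heterozygous and 350.0 to 368 CPM in wild type libraries.

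The library numbers in the labels' sample names showed the sides in runs. The heterozygous libraries numbered 1 and 2 were the lowest in Dlx1 and the wild type libraries numbered 3 and 4 the highest. The heterozygous libraries numbered 5 and 6 were on the high side and the wild type libraries numbered 7 and 8 on the low side. Those numbered 9 and 12 were low and those numbered 10 and 11 high. The labels do not say what the numbers mark, and their part in the pattern was not tested.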

How the data were processed

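Poly(A) RNA of 12 E12.5 dorsal telencephalon samples was used. The deposited values are raw read counts per gene, which the authors made with STAR 2.7.9a and featureCounts (Subread) on mm39, per the submitters' processing notes. No source used here gives the annotation release or strand setting. Totals were 35330956 to 49561343 counts, and the 12 same-group pairs differed beyond sampling noise (chi-square per degree of freedom at least 8.66).

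Members and lists were chosen with earlier results of these data known, and 3 lists after seeing the values. Counts were fitted with edgeR 4.0.16 (R 4.3.3; TMM, filterByExpr, robust quasi-likelihood), 20171 genes passing of 55359. The robust setting and the common filter were settled after counts of calls had been seen. The side contrast (genotype as covariate) is descriptive. Genotype was tested with sex and side as covariates, Benjamini-Hochberg adjusted at 0.05, with and without the side. P-values measure the spread between embryos that is left after the covariates. With the side among these, it is the spread within sides cut from Dlx1 in the same libraries. Litter pairs are not in these fits, as the labels do not give them. Named genes are Chd8, list members, the 12 largest differences each way among genes with sides apart and a mean of 1 CPM (11 existed below 0), the 10 most and 5 least like Dlx1, and the 10 smallest genotype p. On simulated counts, the genotype test recovered 39 of 67, 53 of 66 and 62 of 66 genes changed 1.5-, 2- and 4-fold, with 13 false calls among 19867 genes. Each gene was simulated independently, without variation shared between genes, so these rates need not hold for the real libraries. DESeq2 1.42.0, other scalings, filters, covariates and omitted libraries were tried. Some list members are not reported here by name.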

Additional observations from a re-analysis of the deposited data

Results flagged for a closer look

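In 8 of 88 groups of 6 libraries checked, the highest or lowest library lay far from the rest. Chance marks about 1 in 20 such groups only where they are independent. Here many groups were genes picked for their difference between the sides or their likeness to Dlx1. No excess over chance is therefore read from the 8. Wild type female 1, the library highest in Dlx1, was the outlying high library for Isl1 (14.01 CPM, nearest 5.44), Dlx6os1 (112.7 CPM, nearest 51.5), Dlx6 (5.59 CPM, nearest 2.53), Gad1 (23.3 CPM, nearest 10.2) and the summed monoamine neuron genes (32.9 CPM, nearest 15.3). Wild type male 3, the low library nearest the threshold, stood apart for Slc32a1 at 0.896 CPM, with the next low library at 0.306 CPM. On the high side, wild type female 3 stood apart for the summed choroid plexus genes (84.5 CPM, nearest 29.2). Heterozygous male 2 had the lowest summed diencephalon and hypothalamus genes of the high side, at 88.8 CPM with the nearest at 99.2 CPM.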

How the results depend on the processing

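Across all settings, 5912 recomputed gene differences between the sides stayed within the spread among the libraries of a side, and 53 moved beyond it. That spread takes both genotypes and sexes together, so it holds genotype differences and is a wide limit. For list medians, 660 stayed within the spread among the low libraries and 15 moved beyond it. Counts depended on settings. Genes at a log2 fold change of 1 or more (225) became 3730 with no low-count filter and 60 at a filter of 1 CPM in 6 libraries, and 181 to 325 when a library was left out. Those at -1 or less (61) became 3318 and 5 with these filters, 116 with a split by Gad2, 269 in wild type libraries only, 100 in heterozygous libraries only, and 46 to 150 with a library left out. Genes higher in every high library (54) became 98 without wild type male 1 and female 1, 153 with a split by Gad2, 1196 in wild type only and 1228 in heterozygous only, and 65 to 159 with a library left out. Genes lower in every high library (19) became 29 with no filter, 79 without wild type male 1 and female 1, 34 with a split by Gad2, 1505 and 921 within wild type and heterozygous libraries, and 24 to 60 with a library left out. Genes both higher and past 1 (27) became 15 at the stricter filter, 109 and 134 within genotypes, and 26 to 55 with a library left out. The within-genotype counts rest on 3 libraries a side, and the filters change which genes are tested; the cause of the other shifts was not tested.

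Genotype calls with the side held (196) became 420 with no filter, 391 at the stricter filter, 1257 with DESeq2, 21 without wild type male 1 and female 1, 61 with no side term, 1 with log2 Dlx1 in place of the side, and 1 to 713 with a library left out. Without robust dispersion, a setting added after the data were seen, the count was 240. Calls without the side term (61) were rerun under settings chosen after the data were seen. They became 131 with no filter, 160 at the stricter filter, 1151 with DESeq2, 36 without robust dispersion, 18 without wild type male 1 and female 1, and 1 to 684 with a library left out. Of the recomputed genotype values of the 10 named genes, 127 stayed past the threshold and 81 lost it, all in the same direction. Embryos with the same replicate number did not deviate together (r from -0.407 to 0.108), and 1 of 6 wild type libraries correlated best with its own number. With the replicate block, 265 genes were called for genotype, 128 of them shared, and 116 genes reached -1 between the sides. Low values such as those of Gsx2, Sst and Cntnap3 rest on few counts and limit what can be read from them.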

Other observations

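Lists of vascular, blood, immune and meningeal genes had medians between -0.18 and 0.06 over all 12 libraries. The 8 endothelial genes all had lower fitted levels on the high side, between -0.26 and -0.15 with a median of -0.17, and none separated the sides. The 5 pericyte genes, the 9 microglia genes and the 9 red blood cell genes had medians of -0.18, -0.09 and -0.16. The pericyte median was -0.43 in wild type libraries only and 0.12 in heterozygous libraries only, and the endothelial one was -0.37 and -0.03. The 10 meninges and mesenchyme genes had a median of 0.06 and summed to 570 to 1944 CPM on the high side and 806 to 1541 CPM on the low side. Sox10, a neural crest and glial gene, was at 2.15, while Pdgfra, a gene of oligodendrocyte precursors and mesenchyme, was at 0.15. The immediate early and heat shock genes had a median of -0.03, with -0.46 in wild type and 0.10 in heterozygous libraries alone.

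Motile cilia genes, a list of 8 chosen after the values were seen, summed to 57.3 CPM in heterozygous female 2, 39.8 CPM in wild type male 2 and 30.9 CPM in wild type female 3, the libraries highest in choroid plexus genes. They summed to 5.48 CPM in wild type female 1, 6.74 CPM in heterozygous male 2 and 7.23 CPM in wild type male 1, and to 9.86 to 24.5 CPM in the remaining 6 libraries. The median difference between the sides was -1.36, and in wild type libraries only it was -0.99. Leaving out heterozygous female 2 gave -0.29 and leaving out wild type female 3 gave -2.38. It was -0.71 when wild type male 2 was omitted, -0.78 when both wild type libraries highest in Dlx1 were, and -0.66 at a filter of 1 CPM in 6 libraries.

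In heterozygous libraries, 15 of 15 cell cycle genes had higher fitted levels than in wild type libraries without the side term, with a median log2 difference of 0.12, and none was called. Of the 10 dorsal excitatory neuron genes, 8 were lower, with a median of -0.25, and none was called.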
